A study of Mus musculus with 2 samples.

Results

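The 10 genes described here, Mc2r, Mrap, Gnas, Prkar1a, Prkaca, Prkacb, Pde8a, Pde8b, Creb1 and Crem, carry the signal of the pituitary hormone ACTH into adrenal cells. They were chosen by symbol from 21938 protein-coding genes of the mm10 annotation. Open chromatin was measured by DNase-seq, in which the nuclease DNase I cuts accessible DNA in isolated nuclei so that open sites appear as peaks of cuts. The tissue was whole adrenal gland of female B6CASTF1/J mice aged 36 days, an F1 hybrid strain from The Jackson Laboratory. The data form 1 group of 2 libraries, biological replicates 1 and 2, taken from animals with different numbers that share a donor record in the labels. With a single condition no test between conditions was possible, and values are given per library.

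ACTH binds its receptor MC2R, which reaches the cell surface with the accessory protein MRAP. The receptor acts through the stimulatory G protein, which turns on adenylyl cyclase, and the cyclic AMP that forms releases the catalytic subunits of protein kinase A (PKA) from its regulatory subunits. Phosphodiesterases end the signal by breaking cyclic AMP down, and in the nucleus PKA phosphorylates factors of the CREB family, which bind the cyclic AMP response element (CRE) and drive steroid hormone genes in the adrenal cortex.

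For each library the longer of its deposited peak lists was used, with 157595 peaks in replicate 1 and 166206 in replicate 2, together with the authors' footprints, runs of a few bases inside an open site that DNase I cut less than their surroundings. Height is the authors' signal at a peak, and a promoter peak is one that reaches within 1 kb of any transcription start site of the gene in the GENCODE basic set. The height is a local value that was not summed over gene length. Peaks in the gene body and in flanks of up to 50 kb, cut at the next protein-coding start site, were called distal where they reached within 1 kb of no start of any gene in that set. Distal peaks are listed under a gene by position alone, and the nearest annotated start can belong to another gene. Positions are on mm10 and are those of replicate 1 unless stated, and errors are SDs over the 2 libraries. Among the markers of the tissue, 5 of 6 for the adrenal cortex and 5 of 6 for the medulla showed a promoter peak in both libraries. The same held for 4 of 5 for capsule and stroma, 4 of 5 for endothelium, 4 of 5 for adipocytes, 2 of 5 for macrophages, 2 of 5 for kidney and 1 of 5 for liver. The peak counted for the medulla marker Slc18a1 lay 25 bp from the start of Atp6v1b2, and that for the adipocyte marker Lipe lay nearest to the start of another gene too. In a whole gland, fewer cells of a type and less open chromatin per cell cannot be told apart.

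The promoter peaks of Prkar1a, Prkaca, Prkacb, Pde8a and Pde8b are printed here because they set the single promoter among these that holds a full CRE beside 4 tall or internal promoters without one. The full CRE is the letter sequence TGACGTCA and the short element is TGACG, searched on both strands. Each full CRE contains the short element on either strand. The sequences are those of the reference assembly GRCm38.p6, the mm10 build, and not of the hybrid animals. They are written 5′ to 3′ along each gene, without annotated exons except for the stretch of Prkar1a, and capitals mark the full CRE of Prkar1a and each short element elsewhere.
Prkar1a, chr11:109650889-109650918, + strand: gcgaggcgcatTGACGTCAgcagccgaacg
Prkaca, chr8:83972678-83972977, + strand: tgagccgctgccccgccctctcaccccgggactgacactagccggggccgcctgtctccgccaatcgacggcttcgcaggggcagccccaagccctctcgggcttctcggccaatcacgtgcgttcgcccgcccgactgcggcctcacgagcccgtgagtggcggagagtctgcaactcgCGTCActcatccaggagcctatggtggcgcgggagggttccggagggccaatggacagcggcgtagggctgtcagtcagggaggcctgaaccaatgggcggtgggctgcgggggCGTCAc
Prkacb, chr3:146812991-146813100, - strand: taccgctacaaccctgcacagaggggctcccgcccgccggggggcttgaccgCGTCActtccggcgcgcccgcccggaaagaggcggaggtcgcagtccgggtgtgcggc
Pde8a, chr7:81213061-81213264, + strand: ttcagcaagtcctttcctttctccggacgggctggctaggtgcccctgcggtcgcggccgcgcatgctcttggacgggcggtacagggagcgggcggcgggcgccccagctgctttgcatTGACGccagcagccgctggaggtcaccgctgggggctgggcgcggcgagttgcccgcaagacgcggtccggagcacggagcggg
Pde8b, chr13:95223129-95223260, - strand: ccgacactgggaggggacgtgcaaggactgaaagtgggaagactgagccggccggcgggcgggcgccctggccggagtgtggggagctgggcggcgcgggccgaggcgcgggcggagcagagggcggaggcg
The short element occurs at 2 places in the stretch of Prkaca, at 1 in that of Prkacb and at 1 in that of Pde8a, and it is not in the stretch of Pde8b. The GC box, GGGCGG, occurs at 3 places in Prkaca, 2 in Prkacb, 2 in Pde8a and 4 in Pde8b. The 5 promoters share a high content of G and C, from 66.0% over the whole peak of Prkar1a to 78.8% over that of Pde8b.

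Promoters of the pathway were open, with the receptor itself as the exception. A promoter peak was present in both libraries at 9 of the 10 genes, where the share over all protein-coding genes was 67.4%. The median promoter height of the 10 genes was 9.49 in replicate 1 and 14.96 in replicate 2, where the median over all protein-coding genes, with absent peaks taken as 0, was 2.97 and 4.46. The same 9 genes lay above that median in both libraries. Over protein-coding genes with a promoter peak the median was 6.99 in replicate 1 and 10.26 in replicate 2. Of the 9 genes, Gnas and Pde8b lay below it in both libraries and the others above it. Prkaca, Pde8a and Creb1, that is 3 genes, lay at or above percentile 90 of all protein-coding genes in both libraries, whereas Mc2r lay at percentile 37.0 in replicate 1 and 15.2 in replicate 2. These percentiles describe each library and come from no test.

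**Figure D1:**
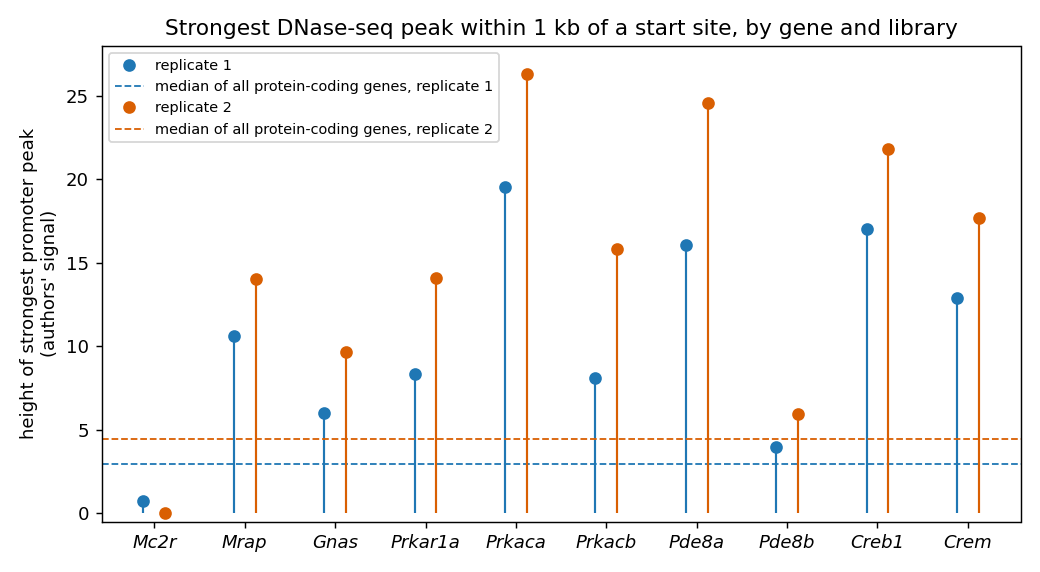
Height of the strongest promoter peak (vertical axis, authors' signal) of each gene in replicate 1 and replicate 2, with dashed lines at the median of all protein-coding genes. Mc2r lies below the lines at 0.757 and no peak (drawn at 0), Prkaca is the tallest at 19.6 and 26.3, and the other genes lie above the line of their library.

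Mc2r, which encodes the ACTH receptor, had almost no open chromatin at its promoter. The gene lies at chr18:68406907-68429320 on the minus strand with a single annotated start site. In replicate 1 its strongest promoter peak, at chr18:68429201-68429400, had a height of 0.757, and a further peak of 0.710 lay 1111 bp upstream of the start. In replicate 2 the window held no peak. The authors' deposited table of false discovery rates gave the same picture, with 227 bp of the 2001 bp window under 0.05 in replicate 1, at a lowest value of 0.000455, and 0 bp in replicate 2. The receptor was therefore the single gene of the 10 whose promoter call differed between the libraries. A peak of 1.18 in replicate 1 and 1.21 in replicate 2 lay 1.44 kb inside the gene, in the first intron at chr18:68427681-68428080, over a further start of Mc2r in RefSeq at 68427840. With a promoter window of 2 kb this peak counted, so that each of the 10 had a peak in both libraries.

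The tallest sites around Mc2r lay far upstream. Its domain of 122.4 kb held 9 distal peaks in replicate 1 and 10 in replicate 2. The median over all protein-coding genes was 4 and 5, not scaled to domain length. The peak at chr18:68474721-68474920, 45.5 kb upstream, had heights of 3.49 in replicate 1 and 3.09 in replicate 2. The next tallest, 43.0 kb upstream at chr18:68472221-68472420, reached 1.80 and 3.77, and another, 45.8 kb upstream at chr18:68475081-68475240, reached 2.86 and 2.37. Each of the 3 was taller than the promoter peak of replicate 1, and replicate 2 had none. Those at 45.5 and 45.8 kb were lower in replicate 2, while that at 43.0 kb was the tallest there, so that the order among them was not stable. No full CRE and no SF-1 element (AAGGTCA, the letters bound by the steroidogenic factor NR5A1) occurred in these 3 peaks, and 2 of them each held 1 short element. The peak at 43.0 kb also held 1 AP-1 element. The annotated start nearest to all of them belonged to the gene model AC021063.1, 39.5 kb away or more. The whole domain of Mc2r held 2 distal peaks with an SF-1 element and 2 with an AP-1 element among the 9 of replicate 1.

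Mrap, the accessory protein gene, had a tall promoter and further peaks close to it. The gene lies at chr16:90738207-90749785 on the plus strand. Its promoter peak at chr16:90738081-90738380 had heights of 10.6 in replicate 1 and 14.1 in replicate 2, a mean of 12.3 ± 2.44 (SD, n = 2), at percentiles 78.6 and 74.3 of all protein-coding genes. The peak had the same borders in both libraries. A peak 1.23 kb upstream of the GENCODE start at 90738324, at chr16:90736961-90737220, reached 5.66 and 8.69 and was the tallest distal peak of all 10 genes in both libraries. It is distal against that start only, since it ended 987 bp from the start of Mrap in RefSeq at 90738207. Another 2.52 kb upstream reached 4.80 and 6.36, and an intronic one 1.87 kb downstream reached 2.80 and 3.76. The promoter peak and these 3 neighbours were each higher in replicate 2. Apart from these, none of the 13 and 9 distal peaks of the domain was as tall as the intronic one. The promoter peak was less rich in G and C, at 53.7%, than those of the signalling enzymes, and held no GC box. It held 1 short CRE element, upstream of the GENCODE start and inside the gene as RefSeq starts it, that a footprint overlapped in both libraries, by a single base in replicate 1.

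**Figure D2:**
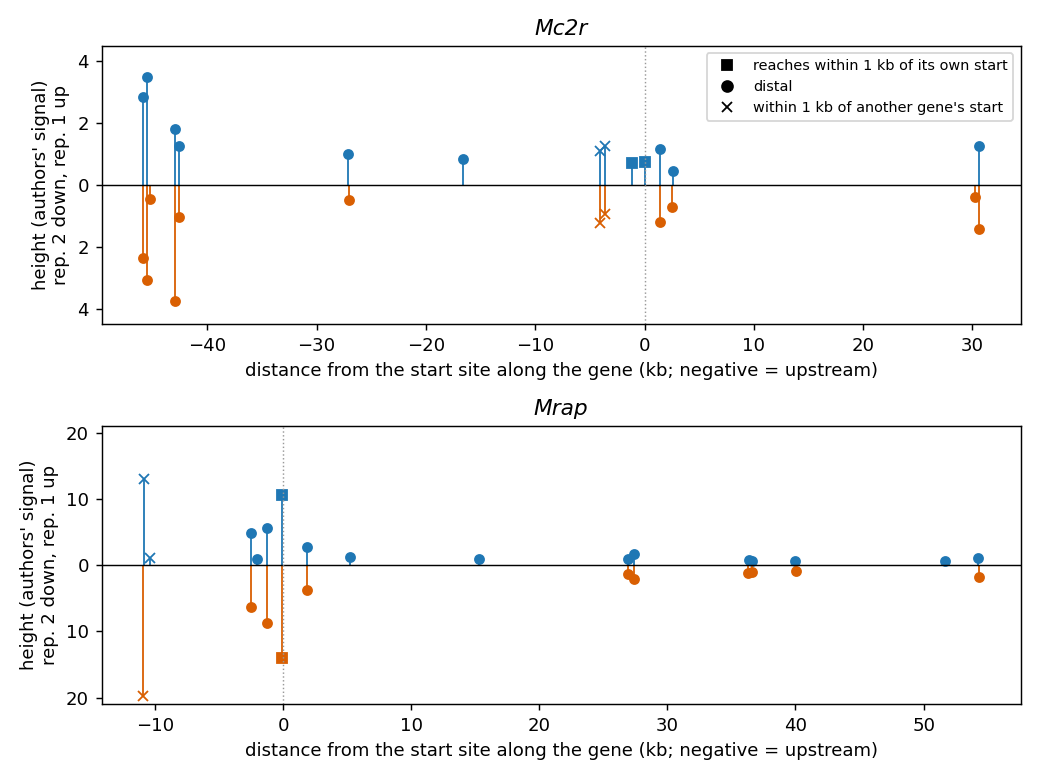
Peak height (authors' signal, replicate 1 upward and replicate 2 downward) against distance from the annotated start (kb, negative is upstream) in the domains of Mc2r and Mrap. Squares reach within 1 kb of the gene's own start, circles are distal and crosses lie within 1 kb of another gene's start. The tallest peaks of Mc2r lie from -45.8 to -43.0 kb, while those of Mrap lie within 3 kb of its start. The tall cross left of Mrap is the start of Mis18a.

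Gnas encodes the stimulatory G protein alpha subunit, and its locus also starts imprinted transcripts from further upstream. It lies at chr2:174284320-174346744 on the plus strand, with start sites in 4 clusters. The cluster at 174330006 to 174330287, from which the alpha subunit itself is made, was the most open, with a peak of 6.03 in replicate 1 and 9.64 in replicate 2 at chr2:174329901-174330160. A neighbouring peak 255 bp upstream of the start, at chr2:174329641-174329860, reached 5.47 and 9.14. The cluster at 174327768, the start of the exon 1A transcripts, came next with 3.03 and 4.77. The most upstream start at 174284320 had 0.710 and 0.997, and the start at 174297859 had no peak in replicate 1 and 0.680 in replicate 2. The main cluster was 1.99 and 2.02 times as tall as the exon 1A cluster and 8.49 and 9.66 times as tall as the most upstream start, so that the order of the clusters was the same in both libraries. The domain held 7 and 9 distal peaks. The tallest lay in an intron at chr2:174344161-174344380, 2.44 kb from the start of Gm20721. It reached 5.11 in replicate 1 and 5.23 in replicate 2, and the promoter peak was 1.18 and 1.84 times as tall as this distal peak. Its mean of 5.17 ± 0.0870 (SD, n = 2) moved little between libraries in which most peaks were taller in replicate 2. An intronic peak at chr2:174312221-174312400 reached 2.93 and 4.93, and one 63.2 kb downstream of the nearest Gnas start reached 2.43 and 2.35.

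Prkar1a encodes the RIα regulatory subunit of PKA, the gene mutated in Carney complex with its pigmented nodular adrenal disease in humans. It lies at chr11:109649405-109669656 on the plus strand. Its 3 start sites share 1 window, and the strongest peak sat on the third, at 109650921. That peak, at chr11:109650821-109651020, had heights of 8.37 in replicate 1 and 14.1 in replicate 2, with a mean of 11.2 ± 4.05 (SD, n = 2). The peak 104 bp upstream of the second start reached 3.19 and 4.65. With the 5′ end of the gene as its only start site the mean height was 3.92, since the window then ended before the tallest peak. Replicate 2 alone held a peak of 2.77 at chr11:109651281-109651480. The 3 tallest distal peaks lay upstream, the first 7.45 kb from the start at chr11:109641841-109642060 with 3.78 and 4.53 and an SF-1 element. The other 2, 30.1 and 28.9 kb upstream, reached 3.0 and 4.0 and then 2.75 and 3.73. The start nearest to both belonged to Gm11685, 2.95 and 4.22 kb away. A peak of 21.04 and 29.8 at the far edge of the domain lies at the start of Wipi1 and was not counted for Prkar1a.

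The full CRE shown above for Prkar1a lay in this tallest peak, at chr11:109650900-109650907, with its centre 17 bp upstream of the third start. It was the only full CRE in the strongest promoter peaks of the 10 genes, where the share over all such peaks was 3.31%, and a share of 1 in 10 genes cannot be told from that level. A footprint covered all of it in replicate 1, at chr11:109650896-109650917, and part of it in replicate 2, at chr11:109650902-109650916. Of the full CREs in the strongest promoter peaks of all genes, 92.6% were overlapped by a footprint in both libraries, so that the overlap at Prkar1a was the common case.

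The catalytic subunit genes were most open at their outer start. Prkaca, which encodes the main catalytic subunit Cα and is mutated in human cortisol-producing adenomas, lies at chr8:83972993-83996443 on the plus strand. Its first start had the tallest promoter peak of the 10 genes, at chr8:83972641-83973000, with 19.6 in replicate 1 and 26.3 in replicate 2 and a mean of 22.9 ± 4.77 (SD, n = 2). The second start, 3.89 kb downstream, had a strongest peak of 1.58 and 2.01. The first start was 12.4 and 13.1 times as tall as the second. Neither of the short elements in the stretch of Prkaca printed above lay under a footprint in either library. A footprint overlapped each of its 3 GC boxes there in both libraries, the last of them 37 bp upstream of the start. The domain of Prkaca, 42.2 kb long, held 4 distal peaks in replicate 1 and 7 in replicate 2, at percentiles 47.7 and 64.4. Per 100 kb this came to 9.49 and 16.6 peaks. The tallest, at chr8:83964121-83964320, lay 8.77 kb upstream, reached 3.02 and 2.62 and held an SF-1 element. The next, 1.67 kb upstream with 0.944 and 0.927, held one as well.

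Prkacb, which encodes the catalytic subunit Cβ, lies at chr3:146729574-146812990 on the minus strand. Its outer start had a peak of 8.12 in replicate 1 and 15.8 in replicate 2 at chr3:146812901-146813100. The cluster 31.5 kb further in had 0.626 and 0.724, and the innermost cluster had no peak in replicate 1 and 0.627 in replicate 2. The promoter peak was 13.0 and 21.8 times as tall as that of the middle cluster. The outer start of Prkacb had the widest gap between the libraries among the strongest promoter peaks of the genes described here. The log2 ratio of replicate 2 over replicate 1 was 0.96 at its peak and 1.00 at a neighbouring one 359 bp downstream of the start. The median log2 ratio over the strongest promoter peaks of all genes was 0.57, and these ratios lay at percentiles 96.9 and 97.6 of those peaks. The neighbouring peak is not itself the strongest of its gene. Over the strongest promoter peaks of all genes most log2 ratios lay between -0.151 and 0.992, a range that holds the 0.96. Over all shared peaks most lay between -0.844 and 1.119, a range that holds the 1.00. Within these ranges neither value stands out. At the middle cluster the gap was small, with a ratio of 0.21 at percentile 8.68. Its peak is not the strongest of the gene either, and the median over all shared peaks was 0.38. The short element printed above lay under a footprint in both libraries, 86 bp upstream of the start. The tallest of its 9 and 12 distal peaks, 71.1 kb from its own nearest start on the downstream side at chr3:146699101-146699300, reached 2.21 and 2.76. The start nearest to that peak belonged to Gm9480, 2.98 kb away.

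**Figure D3:**
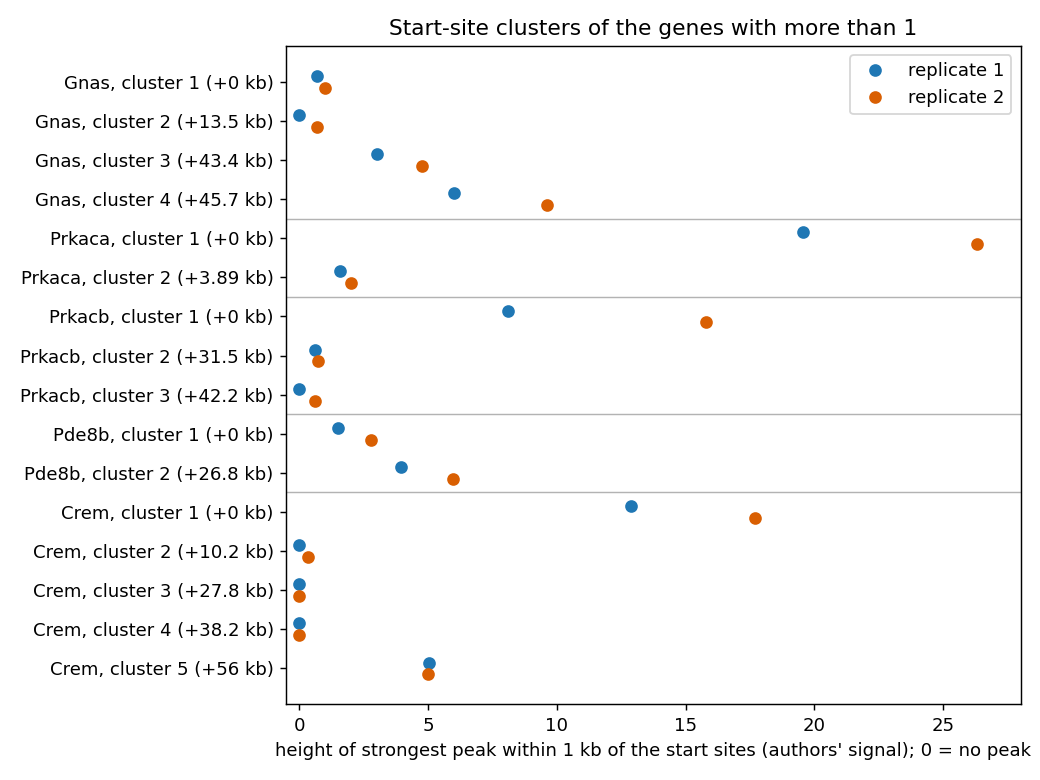
Height of the strongest peak (horizontal axis, authors' signal, 0 means no peak) within 1 kb of each cluster of start sites, for the 5 genes with more than 1 cluster. Labels give the distance of a cluster from the gene's first one in kb, and points are the libraries. Prkaca and Prkacb are tallest at the first cluster, Pde8b and Gnas at the last, and Crem at the first and then the last.

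Across the 10 genes there were 21 clusters of start sites. A peak was present in both libraries at 15 of these, in replicate 2 alone at 3, in replicate 1 alone at 1 and in neither at 2. The clusters without a peak in either library were both inside Crem.

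The high-affinity cyclic AMP phosphodiesterases had the most distal peaks. Pde8a lies at chr7:81213596-81334533 on the plus strand, and its promoter peak at chr7:81213061-81213300 had heights of 16.1 in replicate 1 and 24.6 in replicate 2. The mean was 20.3 ± 6.02 (SD, n = 2). The peak lay 415 bp upstream of the start annotated in GENCODE and spanned the start given by RefSeq at 81213265. Its domain held 22 and 26 distal peaks, at percentiles 95.7 and 96.7 of all protein-coding genes. The 3 tallest all lay upstream within 5 kb of the start, at 3.44 and 5.52 for the first, 3.11 and 4.99 for the second and 3.31 and 4.75 for the third. The second, at chr7:81212261-81212580, ended 685 bp from the RefSeq start and is distal against the GENCODE start only. Pde8a also had 5 of the 6 distal peaks of replicate 1 that held a GC box. As a set, the genes described here had a GC box in 5.31% of their distal peaks, against 6.68% of all distal peaks.

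Pde8b, in which mutations are associated with adrenal hyperplasia in humans, lies at chr13:95024454-95250336 on the minus strand. Its most open start was internal. The cluster 26.8 kb inside the gene had a peak of 3.97 in replicate 1 and 5.97 in replicate 2 at chr13:95223021-95223260, and the outer cluster had 1.51 and 2.77. The internal cluster was 2.62 and 2.15 times as tall as the outer one, and with the 5′ end alone as start site the mean height was 2.14 instead of 4.97 ± 1.41 (SD, n = 2). The promoter of Pde8b was the lowest after that of Mc2r, at percentiles 54.1 and 53.9. Its domain held 28 and 27 distal peaks, the most of the 10 genes in both libraries, at percentiles 97.8 and 97.0, over 323.9 kb. Per 100 kb this came to 8.64 and 8.34 peaks, fewer than the 12.1 and 14.3 of Pde8a or the 18 and 12.4 of Mrap. Its tallest distal peaks came close to the promoter height, with 3.82 and 5.53 at chr13:95287101-95287280, 36.9 kb upstream, and 3.37 and 5.63 at chr13:95174341-95174540 in an intron. The third, also intronic at chr13:95187301-95187580, reached 3.45 and 5.49.

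Creb1, which encodes the CRE-binding factor CREB, lies at chr1:64532645-64604548 on the plus strand. Its promoter peak at chr1:64532681-64532940 had heights of 17.1 in replicate 1 and 21.9 in replicate 2, with the same borders in both libraries and a mean of 19.5 ± 3.39 (SD, n = 2). It contained 9 footprints in replicate 1 and 7 in replicate 2, the most of the 10 strongest promoter peaks in each library. The peak held 2 short elements and no full CRE. A footprint overlapped the first of these in both libraries, by a single base in replicate 1, and the second in neither. Its domain held 6 distal peaks in each library, at percentiles 60.8 and 59.1 of all protein-coding genes. The tallest of them reached 1.16 and 1.44 at chr1:64609281-64609480 in the downstream flank, 7.79 kb from the start of Mettl21a. The promoter was 14.7 and 15.2 times as tall as that site.

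Crem encodes factors that activate or repress through the CRE and is known for an internal promoter that makes the short, cyclic AMP-inducible repressor ICER. It lies at chr18:3266048-3337748 on the minus strand with 5 clusters of start sites. The outer cluster had a peak of 12.9 in replicate 1 and 17.7 in replicate 2 at chr18:3337321-3337820, at percentiles 85.4 and 82.5. The deposited lists hold overlapping peaks at this place. The innermost cluster, 56.0 kb inside the gene, had a peak of 5.05 in replicate 1 and 5.01 in replicate 2 at chr18:3281001-3281200 and a lower one of 1.48 and 1.85 at chr18:3281721-3281900. The cluster 10.2 kb inside the gene had no peak in replicate 1 and one of 0.344 in replicate 2. The 2 clusters at 27.8 and 38.2 kb inside the gene had no peak, and in the authors' deposited table of false discovery rates 0 bp of their windows were under 0.05 in either library. The outer cluster was 2.55 and 3.53 times as tall as the innermost one.

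The innermost start cluster of Crem held the other full CREs. The peak at chr18:3281001-3281200 contained 2, at chr18:3281101-3281108 and chr18:3281168-3281175, and the peak at chr18:3281721-3281900 contained 1, at chr18:3281821-3281828. With that of Prkar1a these made 4 full CREs in 3 of the 37 promoter peaks of replicate 1. A footprint overlapped each of the 4 in both libraries. Over all genes that share was 92.6% for full CREs in strongest promoter peaks, whereas those of Crem lie in lower peaks of the gene. The 3 of Crem lay wholly inside a footprint in both libraries, a share that was not measured over all genes. In the peak at chr18:3281721-3281900, which had only 1 footprint in each library, that footprint was the one over the CRE. These internal peaks were less rich in G and C, at 45.0% and 42.2%, than the outer promoter at 66.2%. The domain of Crem held the fewest distal peaks, 3 in replicate 1 and 2 in replicate 2, at percentiles 40.0 and 30.1. The tallest, at chr18:3328981-3329140, reached 0.663 and 0.547, and the other one found in both libraries, at chr18:3300721-3300880, reached 0.579 and 0.274.

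**Figure D4:**
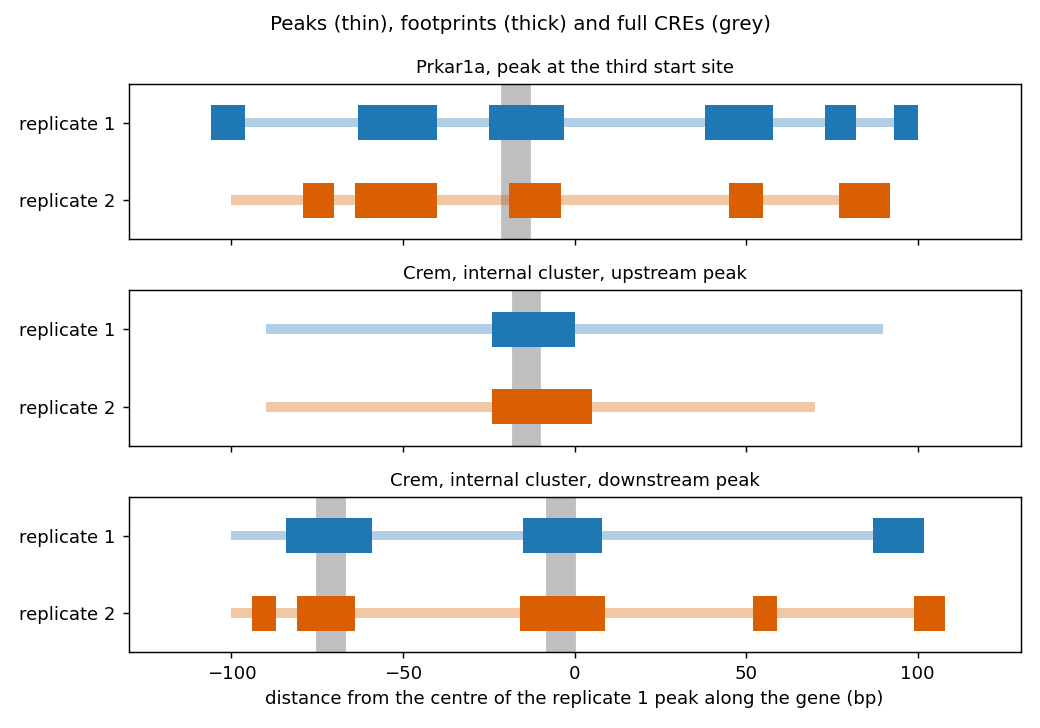
Peaks (thin bars), footprints (thick bars) and full CREs (grey bands) in the 3 promoter peaks that contain a full CRE, against distance along the gene from the centre of the peak of replicate 1 (bp). Each grey band meets a thick bar in both libraries, and the band of Prkar1a is covered in part in replicate 2.

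Outside the full CREs, the promoter peaks of replicate 1 held 15 short elements in 7 genes, of which 5 were overlapped by a footprint in both libraries, 2 of them by a single base in one library. A short element occurred in the strongest promoter peak of 7 of the 10 genes, against 27.5% of such peaks over all genes, and a GC box in 8 of the 10, against 62.8%. An SF-1 element occurred in none of the 37 promoter peaks of replicate 1, and an AP-1 element (TGANTCA) occurred in 1, the peak upstream of the start of Mc2r. In replicate 2 a low promoter peak of Prkaca, at chr8:83976521-83976600 with a height of 0.521, held an SF-1 element that a footprint overlapped. Over all genes these elements occurred in 2.20% and 4.62% of the strongest promoter peaks. Most of the 37 are not the strongest of their gene, and none in 37 cannot be told from a share of 2.20%. Longer peaks hold more matches and G and C content sets how often each word occurs, and the part of either in these counts was not tested. A match gives letters only and is no measure of binding.

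Distal peaks of the 10 genes held elements at rates close to those of all distal peaks. An SF-1 element occurred in 16 of the 113 distal peaks of replicate 1 (14.2%), against 10.7% of all distal peaks. An AP-1 element occurred in 25 of the 113 (22.1%), against 20.9%, and a GC box in 6 of the 113 (5.31%), against 6.68%. A full CRE occurred in 0 of the 113, against 0.418%, a level that would give less than a single peak here. Of the 29 named distal peaks, which are the 3 tallest of each gene found in both libraries and the 2 of Crem, 14 lay in upstream flanks, 11 in introns and 4 in downstream flanks. An AP-1 element occurred in 10 of the 29, a short CRE element in 5 and a GC box in 2. An SF-1 element occurred in 5, at Prkar1a, Prkaca, Prkacb and Pde8a.

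Footprints lay inside the strongest promoter peak of 10 of 10 genes in replicate 1 and of the 9 genes with a peak in replicate 2. Over all genes the shares were 95.3% and 95.2%. The strongest promoter peaks of the 10 genes held a median of 5 and 4 footprints, where the median over all genes was 4 and 3. Counts ranged from 2 at Mc2r and Prkacb to 9 at Creb1 in replicate 1. In replicate 2 they ranged from 2 at Prkacb and Pde8b to 7 at Creb1.

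The replicates shared most peaks at these genes. Of the promoter peaks 89.2% of 37 in replicate 1 overlapped a peak of replicate 2, and 80.5% of 41 in replicate 2 overlapped one of replicate 1, with each of the overlapping peaks of Crem counted. Of the distal peaks 82.3% of 113 and 75.6% of 123 did so. Over all peaks the shares were 80.2% and 76.2%, so that the distal peaks were at the general level. Of the 10 genes, 8 had more distal peaks than the median gene in both libraries and 1, Crem, had fewer in both. These counts were not scaled to the length of the domains, which ran from 42.2 kb at Prkaca to 323.9 kb at Pde8b. Peaks without a partner were low, with a median height of 0.565 in replicate 1 and 0.653 in replicate 2 at the promoters, where the shared ones had 2.36 and 3.42.

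Heights were generally greater in replicate 2. The median log2 ratio of replicate 2 over replicate 1 was 0.38 over all shared peaks and 0.57 over the strongest promoter peaks of all genes, a ratio of 1.30 and 1.48. The promoter peaks of the 10 genes found in both libraries lay at 32 places, with the overlapping outer peaks of Crem taken as 1. At 31 of these replicate 2 was higher, with 13 above the promoter median of the ratio and 19 below it. That median is for the strongest peak of each gene, and most of the 32 places are lower peaks. The exception was the taller internal peak of Crem, whose heights of 5.05 and 5.01 gave a log2 ratio of -0.01. It lay at percentile 3.91 of the strongest promoter peaks of all genes, but is not itself the strongest of its gene. Over all shared peaks most log2 ratios lay between -0.844 and 1.119, and within that wider range the value of -0.01 does not stand out. The outer peak of Crem, with 0.46, lay at percentile 29.2. Among the strongest peaks, Prkar1a (0.75) and Prkacb (0.96) lay furthest above the median, and Creb1 (0.36) and Mrap (0.41) furthest below it. Of the 29 named distal peaks 19 were higher in replicate 2 and 10 in replicate 1, and those 10 include 2 of the upstream peaks of Mc2r.

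**Figure D5:**
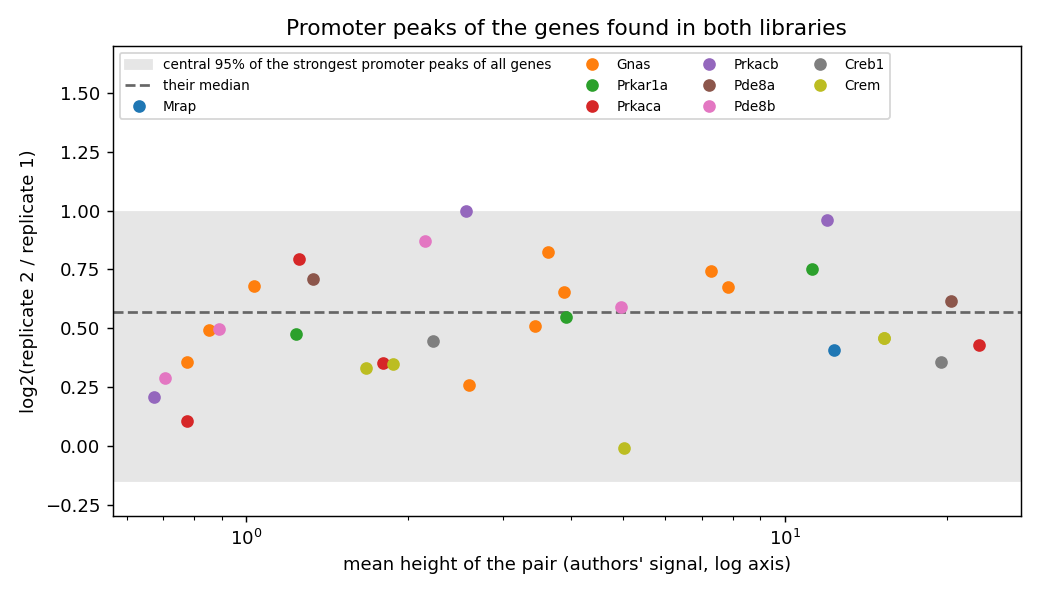
Log2 ratio of replicate 2 over replicate 1 (vertical axis) against mean height (authors' signal, log axis) for the 33 promoter peaks found in both libraries, which include overlapping outer peaks of Crem, coloured by gene. The dashed line is the median of 0.57 over the strongest promoter peaks of all genes and the grey band their central 95%, from -0.15 to 0.99. Most of the points are not the strongest peak of their gene. The peak of Crem at -0.01 is the only one below 0, and those of Prkacb reach 0.96 and 1.00.

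The order of the promoter heights was partly shared. Prkaca was the tallest in both libraries, Pde8a and Creb1 came next in changed order, then Crem, and Gnas, Pde8b and Mc2r were the lowest in that order in both. Mrap, Prkar1a and Prkacb, with 10.6, 8.37 and 8.12 in replicate 1 and 14.1, 14.1 and 15.8 in replicate 2, changed places between the libraries and cannot be ranked among themselves.

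Around these genes, 53 of 57 other genes listed for the pathway had a promoter peak in both libraries, where the share over all protein-coding genes was 67.4%. The list is a selection and does not cover every gene family in full. None of the 57 lacked a peak in both. The exceptions were Adcy4, Pde1a and Pde4c, with a peak in replicate 2 alone, and Adcy10, with one in replicate 1 alone. Their median promoter height was 3.89 in replicate 1 and 5.61 in replicate 2, below the 9.49 and 14.96 of the 10 genes. In each of the following groups the first gene named was the tallest and the last the lowest by mean height.

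Upstream in the pathway, all 5 other melanocortin receptor and accessory protein genes had a peak, with 6.49 ± 2.30 at Mc5r and 0.232 ± 0.0286 at Mc4r (SD, n = 2 here and below). Each of them except Mc4r therefore had a taller promoter than Mc2r in both libraries. The 6 listed genes of other G protein alpha subunits had one too, with 31.9 ± 8.23 at Gna11, taller than any of the 10 genes, and 1.25 ± 0.521 at Gnal. Adenylyl cyclases had a peak in both libraries in 8 of 10 cases, with 12.8 ± 2.74 at Adcy9 and 0.467 ± 0.661 at Adcy10, the soluble cyclase.

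At the level of the kinase, all 3 other PKA regulatory subunit genes had a peak, with 14.1 ± 2.88 at Prkar2b and 2.78 ± 0.633 at Prkar1b. The 3 PKA inhibitor genes reached from 8.24 ± 2.51 at Pkig to 1.58 ± 0.283 at Pkib. All 8 listed A-kinase anchoring protein genes had a peak, with 24.2 ± 6.25 at Akap1, which ties PKA to mitochondria, and 2.38 ± 0.803 at Akap5. The exchange factor genes Rapgef3 and Rapgef4, which cyclic AMP activates without PKA, had 6.08 ± 1.60 and 1.78 ± 0.564.

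Of the 14 other phosphodiesterases that act on cyclic AMP, 12 had a peak in both libraries, with 9.92 ± 3.45 at Pde2a and 0.132 ± 0.187 at Pde1a. All 14 had a lower mean promoter height than Pde8a. Their domains held a median of 19.5 distal peaks in replicate 1 and 17.5 in replicate 2. The most, 78 and 73, lay at Pde4d, more than at Pde8a or Pde8b. The 6 other listed CREB family factors and coactivators all had a peak, with 19.4 ± 6.25 at Crtc1 and 4.47 ± 0.430 at Crtc3, both coactivators of CREB.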

How the data were processed

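DNase-seq peaks, footprints and false discovery rates of 2 libraries were used as deposited, on mm10 per the text deposited with each sample. Aligner, peak caller and settings: not given in the sources used here. Peak heights are a signal scaled by the authors before deposit; in each library 100% of them were multiples of a fixed step within 0.01 steps, 0.00934 in replicate 1 and 0.00883 in replicate 2. Read depth is unknown, and no counting interval is given. The deposited false discovery rates, adjusted p-values, are listed only under 0.05; the p-value of every deposited footprint is 0.01, per the values.

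Start sites came from the basic set of GENCODE M21, further starts and sequences from RefSeq (GRCm38.p6). Sequences were read from that genome, and RefSeq promoter entries for 7 of the 10 genes were at hand. Peaks were shared if they overlapped by at least 1 bp. A percentile ranks a gene among protein-coding genes of a library. The assignment of peaks was tested on simulated data. Python 3.11.15, numpy 2.4.6, pandas 2.3.3, pysam 0.24.0 and matplotlib 3.10.9 were used.

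All 10 genes were named with each cluster of start sites, the 3 tallest distal peaks per gene by mean among those in both libraries, and in each pathway group the tallest and lowest gene and any without a peak. The genes and lists were chosen with earlier results of these data known. Alternatives were the shorter peak list, other windows and flanks, 1 start per gene, summed heights, scaled libraries, a stricter overlap, and each library alone. Labels call the libraries biological replicates; spreads measure only the difference between these 2.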

Additional observations from a re-analysis of the deposited data

How the results depend on the processing

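The number of the 10 genes with a promoter peak in both libraries was 9 in the longer peak list, the shorter list, a 500 bp window and with 1 start per gene, and 10 with a window of 2 kb. The median promoter height of 12.2 ± 3.87 (SD, n = 2) became 19.4 with summed heights and ranged from 9.49 to 14.96 with each library alone. The mean of 118 ± 7.07 distal peaks became 73 in the shorter list, 63.5 when only peaks above their list's median height were kept and 70.5 with 10 kb flanks, which all admit fewer peaks, and 160.5 with 200 kb flanks. It ranged from 113 to 123 with each library alone. The share of shared peaks was 80.3%, against 85.4% in the shorter list and 74.5% when the overlap had to cover 0.5 of both peaks. Of single genes, those that moved by at least the SD between the libraries were 3 with 1 start per gene, all lower (Prkar1a, Pde8b and Gnas), 4 with summed heights, all higher, and 1, Mc2r, with a window of 2 kb, also higher. Pathway genes with a peak in both libraries numbered 51 to 54 across the settings run. No paired analysis was possible because the labels give a single group. With 2 libraries, unknown read depth and heights scaled in an unstated way, a small difference between neighbouring heights cannot be told from the difference between the libraries.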
